A study of Rattus norvegicus with 14 samples.

Results

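The contractile genes of smooth muscle were followed in the epididymis of growing Sprague-Dawley rats at 4 ages. The set was given as 10 symbols (Myocd, Myh11, Mylk, Actg2, Tagln, Cnn1, Lmod1, Des, Synpo2 and Pgm5), and 9 of them had a transcript cluster of their own in the array annotation, out of 18166 genes tested. Cnn1 had none and was not analysed here. Each sample was a pool of whole epididymides, hybridized to an Affymetrix RatGene 2.0 ST array of its own: 3 pools were taken from rats aged 7 days, 4 from rats aged 18 days, 4 from rats aged 28 days and 3 from rats aged 60 days. All animals were untreated and unmutated as far as the labels go, pups up to day 18 stayed with lactating mothers, and the organs were dissected and frozen before RNA extraction. The number of animals in a pool is not in the labels, so p-values measure the spread between these pools. Because whole organs were used, each value mixes the duct wall with epithelium, connective tissue, vessels and covering, and the muscle of the duct cannot be told from that of its vessels. Each member was represented by 1 cluster, so no choice between clusters was needed.

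Smooth muscle surrounds the epididymal duct and moves its contents toward the vas deferens, with thin contractile layers along most of the duct and thicker ones at its end. Contraction starts when calcium and calmodulin activate myosin light chain kinase, which phosphorylates myosin so that it can pull on actin filaments. The filaments are held by dense bodies and membrane plaques, which an intermediate filament network links. Transcription of these genes depends largely on serum response factor, which binds a short element called the CArG box, and on its coactivator myocardin.

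The values are the authors' log2 signals after robust multi-array averaging (RMA), which normalizes arrays to each other, so a difference is relative to the rest of the array. Tests were made with limma, and p-values were adjusted by Benjamini-Hochberg over all 18166 genes, with a threshold of 0.05. Array medians lay between 5.21 and 5.42, and pools of an age correlated at 0.989 to 0.995 across genes, which are not independent replicates. The level under which 95% of 1344 olfactory and vomeronasal receptor genes lay was 4.92, and it is used here as the background level. All 9 members lay above it in every pool. Levels of different genes were not compared with each other, because each cluster has its own probes.

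The mean of 8 of the 9 smooth muscle genes was lowest at day 18, as was that of 16.2% of all genes. For Myh11, Synpo2 and Pgm5 among them, day 18 was not called lower than day 7 (log2 differences -0.02, -0.06 and -0.16). At day 28, 8 of the 9 genes were higher than at day 18, as were 10.5% of all genes. All 9 differed among the ages by the joint test (adjusted p = 1.03e-07 for Pgm5 to 0.00087 for Tagln), as did 60.4% of all genes. Between day 7 and day 18 the coactivator gene Myocd fell 2.58-fold and 4 other members fell 1.28 to 1.73-fold, where 20.7% of all genes fell. Between day 18 and day 28 Myh11, Pgm5 and 6 others rose 1.37 to 1.94-fold. At day 60 the actin gene Actg2 was 2.35-fold higher than at day 7, and Myocd was 2.19-fold lower. In whole organs, fewer smooth muscle cells and less RNA in each cell cannot be told apart.

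**Figure D1:**
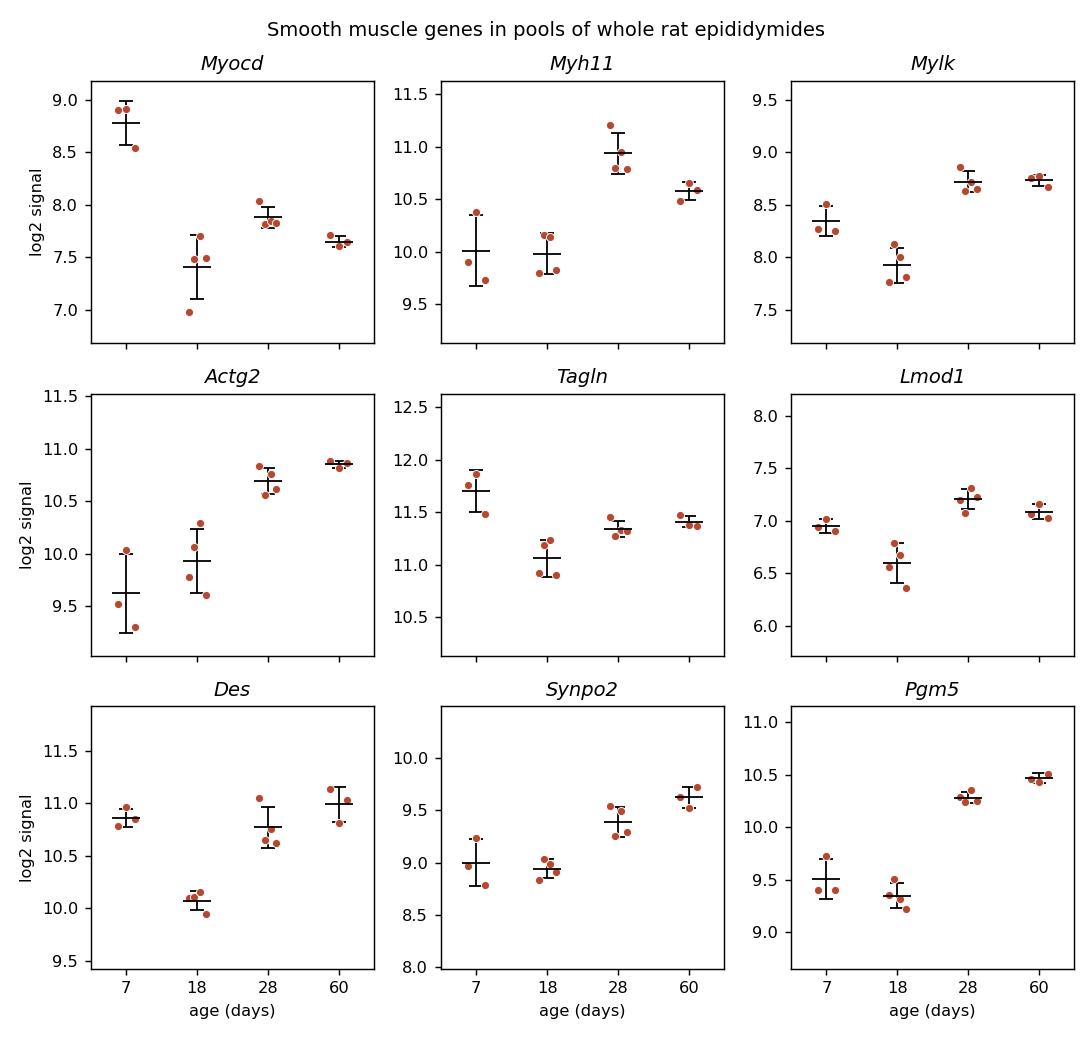
Log2 signal (vertical axis, same span in each panel) of the 9 smooth muscle genes at the 4 ages in days (horizontal axis, not to scale in time). Points are pools and bars are the mean ± SD over 3 pools at days 7 and 60 and 4 pools at days 18 and 28. Myocd is highest in the 3 day 7 pools. Actg2, Pgm5, Myh11 and Mylk, and by a narrow margin Synpo2 and Lmod1, are highest in the day 28 and day 60 pools.

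Myocd encodes myocardin, the coactivator that turns on contractile genes through serum response factor. Its log2 signal was 8.90, 8.91 and 8.54 in the day 7 pools, 6.98, 7.48, 7.70 and 7.49 in the day 18 pools, 8.04, 7.82, 7.85 and 7.83 in the day 28 pools, and 7.71, 7.61 and 7.65 in the day 60 pools. Every day 7 pool lay above every later pool, and the day 18 and day 60 pools overlapped. Myocd averaged 7.41 ± 0.304 at day 18 and 8.78 ± 0.206 at day 7 (SD, n = 4 and 3), a fall of 1.37 ± 0.14 on the log2 scale (SE, adjusted p = 2.02e-06). It rose by 0.47 ± 0.13 at day 28 against day 18 (adjusted p = 0.0161), and the difference of day 60 from day 28 was -0.23 ± 0.14 (adjusted p = 0.262). Its order was day 7 above day 28, day 60 and day 18, where neither day 60 against day 28 nor day 60 against day 18 was called. The day 60 pools nevertheless all lay below the day 28 pools.

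Myh11 encodes the smooth muscle myosin heavy chain, the motor of the thick filament and a marker of the differentiated cell. Its log2 signal was 9.90, 10.38 and 9.73 at day 7, 9.80, 10.16, 10.14 and 9.83 at day 18, 11.21, 10.80, 10.95 and 10.79 at day 28, and 10.48, 10.66 and 10.59 at day 60. The day 18 pools lay within the range of the day 7 pools, and all day 28 pools lay above all others. Myh11 averaged 10.94 ± 0.195 at day 28 and 9.98 ± 0.195 at day 18 (SD, n = 4 each), a rise of 0.96 ± 0.139 (SE, adjusted p = 0.000143), or 1.94-fold. At day 18 its difference from day 7 was -0.02 ± 0.15 (adjusted p = 0.918). At day 60 it lay 0.36 ± 0.15 below day 28 without passing the threshold (log2 difference -0.36, adjusted p = 0.0953), although the pools did not overlap. It was still 0.57 ± 0.161 higher at day 60 than at day 7 (adjusted p = 0.00812).

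Mylk encodes myosin light chain kinase, the switch of contraction. Its log2 signal was 8.27, 8.51 and 8.25 at day 7, 7.76, 8.12, 8.0 and 7.81 at day 18, 8.86, 8.63, 8.72 and 8.65 at day 28, and 8.75, 8.77 and 8.67 at day 60. The 4 day 18 pools were below all others and the day 28 and day 60 pools overlapped. Mylk fell by 0.42 ± 0.1 at day 18 against day 7 (adjusted p = 0.00385) and rose by 0.79 ± 0.0929 at day 28 against day 18 (adjusted p = 1.86e-05). Its day 60 mean exceeded its day 7 mean by 0.39 ± 0.107 (adjusted p = 0.007). Of the 9 genes, Mylk followed the mean of the other 8 standardised profiles most closely, with a Pearson correlation of 0.979 over the 14 arrays, which all members share.

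Actg2 encodes the smooth muscle gamma actin, a thin filament actin best known from the gut wall. The pools of Actg2 had log2 signals of 9.52, 10.03 and 9.30 at day 7, 9.78, 10.06, 10.29 and 9.60 at day 18, 10.83, 10.56, 10.76 and 10.61 at day 28, and 10.88, 10.81 and 10.86 at day 60. It was the only member whose lowest mean was at day 7, with overlapping pools at days 7 and 18. The day 18 difference from day 7 was 0.32 ± 0.168 (adjusted p = 0.161), and without replicate 2 of day 7, the highest pool of that age, it was 0.52 (adjusted p = 0.0203). Actg2 rose by 0.76 ± 0.155 at day 28 against day 18 (adjusted p = 0.00233) and averaged 10.85 ± 0.0344 at day 60 and 9.62 ± 0.374 at day 7 (SD, n = 3 each), a rise of 1.24 ± 0.179 (adjusted p = 3.43e-05). Actin genes resemble each other closely, and signal shared between them was not separated; the alpha actin gene Acta2 was not analysed here.

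RefSeq promoters of 5 members were in the sequence table (assembly GRCr8, 250 bases before to 50 after the annotated start): Actg2, Pgm5, Des, Synpo2 and Mylk. They are printed for Actg2 and Pgm5, whose rises over the whole span were 2.35 and 1.94-fold, and for Mylk, the member closest to the shared profile. Lower case is used throughout except for CATTCC, the muscle CAT element, searched on both strands and set in capitals.
Actg2 promoter (chr4:117593990-117594289, minus strand): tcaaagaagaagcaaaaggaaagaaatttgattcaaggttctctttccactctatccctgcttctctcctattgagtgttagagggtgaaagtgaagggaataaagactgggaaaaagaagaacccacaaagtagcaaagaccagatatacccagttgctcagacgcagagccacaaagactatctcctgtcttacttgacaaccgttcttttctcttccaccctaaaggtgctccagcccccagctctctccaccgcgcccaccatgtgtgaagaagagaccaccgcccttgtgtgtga
Pgm5 promoter (chr1:231939763-231940062, minus strand): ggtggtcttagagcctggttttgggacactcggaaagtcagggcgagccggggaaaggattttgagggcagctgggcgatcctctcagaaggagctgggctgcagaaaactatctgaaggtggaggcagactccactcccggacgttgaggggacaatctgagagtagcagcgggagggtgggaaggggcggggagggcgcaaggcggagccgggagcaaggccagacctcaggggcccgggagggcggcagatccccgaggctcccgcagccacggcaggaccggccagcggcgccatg
Mylk promoter (chr11:79498525-79498824, minus strand): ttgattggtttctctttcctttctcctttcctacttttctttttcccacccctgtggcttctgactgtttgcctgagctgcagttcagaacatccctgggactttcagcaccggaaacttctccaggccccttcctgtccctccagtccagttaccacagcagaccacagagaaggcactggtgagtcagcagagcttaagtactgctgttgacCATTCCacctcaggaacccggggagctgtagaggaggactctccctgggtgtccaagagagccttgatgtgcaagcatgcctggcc
None of the 5 windows held a CArG box, which 1.64% of all 33469 promoter windows of that length held, and none held one with a single C or G in its centre, which 8.1% held. CATTCC was in 1 of the 5, that of Mylk at position -36 from the start, and in 14.2% of all windows. The search covered these letters and windows only. Whether these annotated starts are the ones used in the epididymis was not tested, so the counts do not extend to other promoters of the genes.

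Tagln encodes transgelin, an actin-binding protein that appears early in smooth muscle differentiation. For Tagln the log2 signal was 11.76, 11.86 and 11.48 at day 7, 10.92, 11.19, 11.23 and 10.90 at day 18, 11.45, 11.27, 11.33 and 11.32 at day 28, and 11.47, 11.38 and 11.37 at day 60. All day 18 pools were below all others, and the 3 day 7 pools were above all others. Tagln fell by 0.64 ± 0.106 at day 18 against day 7 (adjusted p = 0.000214). The day 28 difference from day 18, 0.28 ± 0.0983, just missed the threshold (adjusted p = 0.0508), and it passed in 8 of 23 alternative settings, among them median centring (0.32, adjusted p = 0.0288). At day 60 Tagln was 0.29 ± 0.114 lower than at day 7 (log2 difference -0.29, adjusted p = 0.0457). That last call ended without replicate 1 or 2 of day 7, replicate 3 or 4 of day 28, or any 1 of the day 60 pools (adjusted p = 0.0557 to 0.186), with median centring (-0.22, adjusted p = 0.124), and in 3 other settings.

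Lmod1 encodes leiomodin 1, which nucleates actin filaments in smooth muscle. Lmod1 had log2 signals of 6.94, 7.02 and 6.90 at day 7, 6.56, 6.79, 6.68 and 6.36 at day 18, 7.20, 7.08, 7.31 and 7.23 at day 28, and 7.07, 7.16 and 7.03 at day 60. Again all day 18 pools were the lowest. Lmod1 fell by 0.36 ± 0.0971 at day 18 against day 7 (adjusted p = 0.00907) and rose by 0.61 ± 0.0899 at day 28 against day 18 (adjusted p = 0.000163). At day 60 the difference from day 7 was 0.13 ± 0.104 (adjusted p = 0.326). The small excess of day 28 over day 7, 0.25 ± 0.0971 (adjusted p = 0.0433), ended without any 1 of 9 pools (all of day 7, replicate 1 of day 18, replicates 1, 3 and 4 of day 28, and replicates 1 and 3 of day 60), with adjusted p of 0.0513 to 0.128, and with every cluster of the table tested (0.25, adjusted p = 0.0762).

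The remaining members anchor the contractile apparatus. Des encodes desmin, the intermediate filament protein of smooth and striated muscle, and its log2 signal was 10.78, 10.96 and 10.85 at day 7, 10.10, 10.11, 10.15 and 9.94 at day 18, 11.05, 10.65, 10.75 and 10.62 at day 28, and 11.14, 10.81 and 11.03 at day 60. The 4 day 18 pools stood below a band shared by the other 3 ages. Des fell by 0.79 ± 0.109 at day 18 against day 7 (1.73-fold, adjusted p = 3.66e-05) and rose by 0.70 ± 0.101 at day 28 against day 18 (1.62-fold, adjusted p = 0.000133). At day 60 it differed from day 7 by 0.13 ± 0.116 (adjusted p = 0.393), with overlapping pools.

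Synpo2 encodes synaptopodin 2, an actin-bundling protein of Z-discs and dense bodies. The log2 signal of Synpo2 was 8.97, 9.23 and 8.79 at day 7, 8.83, 9.03, 8.99 and 8.91 at day 18, 9.54, 9.25, 9.49 and 9.29 at day 28, and 9.62, 9.52 and 9.72 at day 60. The day 7 and day 18 pools overlapped and all later pools were higher. Synpo2 rose by 0.45 ± 0.1 at day 28 against day 18 (adjusted p = 0.00401), and at day 60 it was 0.62 ± 0.116 higher than at day 7 (adjusted p = 0.000355).

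Pgm5 encodes aciculin, a phosphoglucomutase relative that sits at cell-matrix and cell-cell plaques of muscle. Its log2 signal was 9.40, 9.73 and 9.40 at day 7, 9.36, 9.51, 9.32 and 9.22 at day 18, 10.29, 10.24, 10.36 and 10.25 at day 28, and 10.46, 10.43 and 10.51 at day 60. The 7 pools of the 2 later ages lay above the 7 earlier ones. Pgm5 rose by 0.93 ± 0.0863 at day 28 against day 18 (1.91-fold, adjusted p = 1.88e-06) and stood 0.96 ± 0.0997 higher at day 60 than at day 7 (adjusted p = 1.15e-06). Pgm5 and Synpo2 had the highest correlation of any pair of members over the 14 arrays (Pearson 0.944), and Myocd and Actg2 the lowest (-0.31).

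Set side by side, the first step divided the members. At day 18 against day 7, 5 of 9 members were lower (Myocd, Des, Tagln, Mylk and Lmod1) and 0 were higher, where 38.1% of all genes were called, 20.7% lower and 17.4% higher. The same 5 members had pools that did not overlap between the ages, as had 45.1% of all genes. The median difference of the members was -0.36, against 0.01 for all genes. For Myh11, Synpo2 and Pgm5 the differences were -0.02, -0.06 and -0.16 (adjusted p = 0.918, 0.726 and 0.214). The difference of Myh11 was positive under quantile normalization (0.03) and median centring (0.01).

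At day 28 against day 18, 8 of 9 members were higher and 0 were lower, where 24.7% of all genes were called, 10.5% higher and 14.3% lower. Only Tagln was not called, and all 9 members had pools that did not overlap, as had 26.5% of all genes. The median difference of the members was 0.70, against -0.02 for all genes, and the differences ran from 0.28 for Tagln to 0.96 for Myh11. Myocd, Des, Lmod1 and Mylk were both lower at day 18 than at day 7 and higher at day 28 than at day 18, as were 381 of 18166 genes (2.1%). These steps share the day 18 pools.

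At day 60 against day 28, 0 of 9 members were called by limma, where 25% of all genes were called, 13.8% higher and 11.2% lower. At an unadjusted p under 0.05 the count was 1 (Myh11), and the differences ran from -0.36 for Myh11 to 0.23 for Des. The pools of Myh11, Myocd and Pgm5 did not overlap between these ages, as those of 31.4% of all genes did not. Des was higher by 0.32 without replicate 1 of day 28 (adjusted p = 0.0301), and Myh11 was lower without replicate 2 of day 7 (-0.36, adjusted p = 0.0465), under quantile normalization (-0.47, adjusted p = 0.033) and among brighter genes alone (-0.36, adjusted p = 0.0427).

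Over the whole span, day 60 against day 7, 5 of 9 members were higher (Actg2, Pgm5, Synpo2, Myh11 and Mylk) and 2 were lower (Myocd and Tagln), where 49.2% of all genes were called, 21.7% higher and 27.6% lower. The pools of 8 members did not overlap, as those of 57.8% of all genes did not. Des and Lmod1 were not called. At day 28 against day 7, a comparison that shares the day 7 pools, 6 were higher and 2 lower, where 48% of all genes were called, 20.5% higher and 27.4% lower, and Lmod1 was the sixth. There too 8 members had pools that did not overlap, as had 49.8% of all genes. Without replicate 2 of day 7, Tagln was not called there (-0.28, adjusted p = 0.0697). At day 60 against day 18, 8 were higher and 0 lower, where 41.1% of all genes were called, 19% higher and 22.1% lower. Pools of 8 members did not overlap, as in 46.5% of all genes, and the exception was Myocd (0.24 ± 0.14, adjusted p = 0.197). Tagln lost that call without replicate 4 of day 18 (0.29, adjusted p = 0.0505) or replicate 1 of day 60 (0.31, adjusted p = 0.0617), under quantile normalization (0.13, adjusted p = 0.333) and with replicate numbers as a block (0.32, adjusted p = 0.0511).

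**Figure D2:**
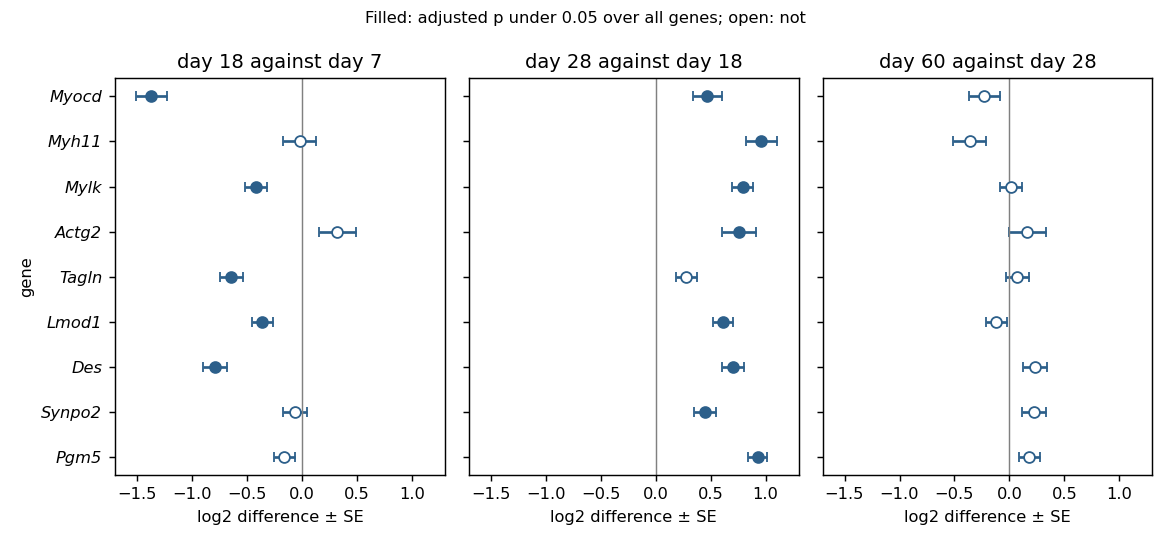
Log2 difference of the later minus the earlier age with its SE (horizontal axis) for the 9 genes (vertical axis) in the 3 comparisons of neighbouring ages. Filled points had an adjusted p under 0.05 over all genes. The first panel holds 5 filled points, all below 0, the second 8, all above 0, and the third none.

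Other genes of the contractile apparatus and its anchors, 27 of 31 listed, moved in part with the members. At day 18 against day 7, 20.7% of all genes were lower and 17.4% higher. Of the 27, 15 were lower and 1 was higher (median -0.42), or 2 higher without replicate 1 of day 28. The largest fall was that of Pdlim7, a PDZ and LIM protein that binds actin filaments, which averaged 9.01 ± 0.14 at day 18 and 10.92 ± 0.172 at day 7 (SD, n = 4 and 3), a fall of 1.91 ± 0.111 (adjusted p = 6.29e-09). Synm, synemin, an intermediate filament partner of desmin, rose by 1.27 ± 0.118 over the same step (adjusted p = 7.34e-07), while Des fell. Then, at day 28 against day 18, 10.5% of all genes were higher and 14.3% lower. Of the 27, 13 were higher and 1 was lower (median 0.30). Sgcd, delta-sarcoglycan of the membrane complex that holds dystrophin, rose by 0.83 ± 0.12 (adjusted p = 0.000129), and Sorbs2, an adaptor of actin and adhesion that epithelia also express, fell by 0.71 ± 0.0656 (adjusted p = 1.89e-06).

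At day 60 against day 28, 13.8% of all genes were higher and 11.2% lower. The same list had 4 higher and 5 lower genes there, and 18 were not called (median -0.06). The count of lower genes was 2 or 3 in 6 alternative settings, among them leaving out replicate 1 or 3 of day 28 or replicate 1 or 3 of day 60. Itga8, the alpha 8 integrin of smooth muscle and other stromal cells, rose by 1.29 ± 0.168 (adjusted p = 7.07e-05), with means of 7.28 ± 0.0882 at day 60 and 5.99 ± 0.286 at day 28. Ppp1r14a, an inhibitor of myosin phosphatase that favours contraction, fell by 0.64 ± 0.134 (adjusted p = 0.00285).

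Regulators of the smooth muscle programme, 13 of 15 listed, were mostly lower after day 7. At the successive steps, 20.7, 14.3 and 11.2% of all genes were lower and 17.4, 10.5 and 13.8% higher. At day 18 against day 7, 9 of 13 were lower and 1 was higher (median -0.36). Gata6, a zinc finger factor of smooth muscle and other tissues, fell by 1.19 ± 0.135 (adjusted p = 5.89e-06), and Foxo4, a forkhead factor that can repress myocardin, rose by 0.39 ± 0.0827 (adjusted p = 0.00154). Srf, the gene of serum response factor itself, fell by 0.29 at that step (adjusted p = 0.031). Later 1 was higher and 2 were lower at day 28 against day 18 (median -0.16). The lower count was 1 without replicate 1, 3 or 4 of day 18 or replicate 2 or 4 of day 28, and the higher count was 2 without replicate 2 of day 18, under quantile normalization, median centring, the filter on dim genes and the intensity trend. Tshz3, a zinc finger factor needed for smooth muscle of the ureter in mice, rose by 0.68 ± 0.113 (adjusted p = 0.000447), and Klf5 fell by 0.50 ± 0.0901 (adjusted p = 0.000798). From the list 4 were higher and 1 was lower at day 60 against day 28: Klf4, a repressor of contractile genes that epithelia also express, rose by 0.62 ± 0.0918 (adjusted p = 0.000196) and Foxo4 fell by 0.36 ± 0.0827 (adjusted p = 0.00571). Without replicate 1 of day 60, 2 were lower.

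Receptors, channels and relaxation genes, 27 of 29 listed, had no common direction. At the successive steps, 20.7, 14.3 and 11.2% of all genes were lower and 17.4, 10.5 and 13.8% higher. At day 18 against day 7, 7 were higher and 15 were lower (median -0.24), at day 28 against day 18, 8 were higher and 2 were lower (median 0.13), and at day 60 against day 28, 6 were higher and 4 were lower (median 0.02). The last lower count was 2 without replicate 1 of day 60, and the filter on dim genes, which leaves fewer genes, gave 1 higher and 2 lower. Tbxa2r, the thromboxane receptor, fell by 1.65 ± 0.106 at day 18 against day 7 (adjusted p = 1.77e-08), and Kcnma1, the large-conductance potassium channel, rose by 1.0 ± 0.123 (adjusted p = 1.27e-05). At the next step Kcnma1 fell by 0.60 ± 0.114 (adjusted p = 0.00131), and Oxtr, the oxytocin receptor, through which oxytocin contracts the duct, rose by 1.15 ± 0.128 (adjusted p = 1.12e-05). In the last step, day 60 against day 28, P2rx1, the ATP-gated channel of sympathetic contraction, averaged 7.40 ± 0.217 at day 60 and 5.79 ± 0.231 at day 28 (SD, n = 3 and 4), a rise of 1.61 ± 0.158 (adjusted p = 5.96e-06), and Gucy1a1, a subunit of the nitric oxide receptor, fell by 0.86 ± 0.0797 (adjusted p = 3.52e-06).

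Non-muscle counterparts of the contractile proteins, 9 of 10 listed, were mostly lower with age. At the successive steps, 20.7, 14.3 and 11.2% of all genes were lower and 17.4, 10.5 and 13.8% higher. At day 18 against day 7, 1 was higher and 4 were lower (median -0.07), at day 28 against day 18, 0 were higher and 3 lower (median -0.16), and at day 60 against day 28, 1 was higher and 4 lower (median -0.22). For day 28 against day 18, 1 was higher at an unadjusted p under 0.05 by limma, and 1 was called under median centring, the filter on dim genes, the intensity trend and array weights. The lower count there was 5 under quantile normalization and the intensity trend. Myh10, the non-muscle myosin heavy chain IIB found in immature smooth muscle and many other cells, fell by 0.94 ± 0.0748 at the first step (adjusted p = 1.49e-07). Between day 7 and day 60 it fell by 1.39 ± 0.08 (adjusted p = 1.76e-09), while the smooth muscle chain Myh11 rose by 0.57 ± 0.161. Cnn3, the acidic calponin of non-muscle cells, rose by 0.33 ± 0.0825 at day 18 against day 7 (adjusted p = 0.00471), then fell by 0.67 ± 0.0764 and by 0.65 ± 0.0825 at the later steps (adjusted p = 1.52e-05 and 5.7e-05). Myl12b, a regulatory light chain, rose by 0.29 ± 0.0654 at day 60 against day 28 (adjusted p = 0.00483).

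Markers of other cells also changed between the ages. All 12 epithelial markers were higher at day 18 than at day 7 (median 0.80), as were 17.4% of all genes, when 5 members fell. Their summed linear signal ran from 5617 to 6564 at day 7, 10481 to 11326 at day 18, 8508 to 8827 at day 28 and 7680 to 8084 at day 60, and none of the 12 was at background. Ehf, an epithelial transcription factor, rose by 1.43 ± 0.0818 at day 18 (adjusted p = 5.44e-09). At day 28 against day 18, 14.3% of all genes were lower and 10.5% higher. Of the epithelial markers 6 were lower and 1 was higher. Among the lower was Krt19, which fell by 1.03 ± 0.0837 (adjusted p = 5.07e-07). The members' own sum ran from 8097 to 10501 at day 7, 6144 to 7636 at day 18, 9944 to 11964 at day 28 and 10772 to 11382 at day 60, so that the age with the highest epithelial sum had the lowest members' sum. The part of the epithelium in the members' differences was not tested.

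Stromal markers were mostly lower at day 18 than at day 7, where 20.7% of all genes were lower. All 12 fibroblast markers were lower at day 18 than at day 7 (median -1.05, sums of 27850 to 30498 at day 18 and 44170 to 46637 at day 7), led by Vcan, a matrix proteoglycan (-2.71 ± 0.166, adjusted p = 1.01e-08). At day 28 against day 18, 3 were higher and 1 was lower (median 0.07), where 8 of 9 members and 10.5% of all genes were higher. Thy1, a surface protein of fibroblasts that T cells also carry, was among the 3, with a rise of 1.05 ± 0.122 (adjusted p = 1.82e-05). Of 8 endothelial markers 6 were lower at day 18 than at day 7 (Cdh5 by -1.07 ± 0.0725, adjusted p = 2.92e-08), and 4 were higher at day 28 than at day 18 (median 0.27), with sums of 996 to 1082 at day 28 and 836 to 908 at day 18. Their part in the members' differences was not tested.

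Vascular mural cells, which wrap vessels and share the contractile programme, could not be separated from duct muscle in these pools. Of all genes, 20.7% were lower and 17.4% higher at day 18 against day 7. At day 28 against day 18, 14.3% were lower and 10.5% higher. Of 11 mural markers 7 were lower and 1 was higher at day 18 than at day 7 (median -0.49). Of the same 11, 6 were higher and 1 lower at day 28 than at day 18 (median 0.33). The last count was 2 without replicate 2 of day 7 or replicate 3 of day 28. Their sum ran from 2714 to 3136 at day 7, 1881 to 2145 at day 18, 2601 to 2994 at day 28 and 2740 to 2863 at day 60, lowest at day 18 like that of the members. Pdgfrb, a growth factor receptor of pericytes and fibroblasts, fell by 1.24 ± 0.104 at day 18 (adjusted p = 2.43e-07), and Mcam rose by 0.91 ± 0.115 at day 28 (adjusted p = 4.05e-05). Heyl went the other way at both steps. It rose by 0.43 ± 0.0955 at day 18 (adjusted p = 0.00231) and fell by 0.66 ± 0.0884 at day 28 (adjusted p = 7.29e-05). Abcc9, a subunit of an ATP-sensitive potassium channel, rose by 0.63 ± 0.112 at day 60 against day 28 (adjusted p = 0.000817). The part of vascular cells in the members' differences was not tested.

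Striated muscle can share Des, Synpo2 and Pgm5, and 19 of 26 of its markers were measured. Of these 7 to 9 were at or under background by age, including the myosin genes Myh7 and Myh8, the giant protein gene Ttn and Myl1 at every age. The list's sum ran from 1157 to 1477 at day 7, 2123 to 2631 at day 18, 3207 to 3777 at day 28 and 2894 to 3004 at day 60. Acta1, the skeletal actin gene with close relatives in smooth muscle, had log2 means of 9.13, 10.64, 11.23 and 11.05 and made up 36.7 to 53.7% of the sum at day 7, 63.1 to 69.9% at day 18, 67.2 to 72.9% at day 28 and 70.9 to 71.8% at day 60. The sum of the other 18 genes ran from 683 to 733 at day 7, 767 to 805 at day 18, 1023 to 1053 at day 28 and 816 to 874 at day 60. Of all genes, 17.4% were higher and 20.7% lower at day 18 against day 7, where 5 striated markers were higher and 2 lower (median 0.10). The lower count was 1 without replicate 2 of day 7 or replicate 1 or 3 of day 18. The troponin genes lay at both ends: Tnnc2 rose by 1.74 ± 0.137 (adjusted p = 1.23e-07) and Tnnc1 fell by 1.51 ± 0.155 (adjusted p = 2.12e-06). At day 28 against day 18, 10.5% of all genes were higher and 14.3% lower. The counts of the list were 5 higher and 0 lower (median 0.04), with 1 lower at an unadjusted p under 0.05 by limma. Tnni1 rose by 1.42 ± 0.134 (adjusted p = 2.13e-06). The part of striated muscle in the rises of Des, Synpo2 and Pgm5 at day 28 was not tested.

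Immediate early, mesothelial and proliferation genes had their highest sums at day 7. At day 18 against day 7, 20.7% of all genes were lower and 17.4% higher, and at day 28 against day 18, 14.3% and 10.5%. Of 15 immediate early genes 12 were lower and 1 was higher at day 18 than at day 7. Of these, Fos fell by 3.87 ± 0.153 (adjusted p = 1.05e-10) and Egr2 rose by 2.06 ± 0.168 (adjusted p = 1.87e-07). Several of these genes are also targets of serum response factor. Their sum ran from 12299 to 16314 at day 7, 4111 to 4678 at day 18, 3097 to 3641 at day 28 and 4202 to 4538 at day 60. All 7 mesothelial markers were lower at day 18 than at day 7, with Lrrn4, a mesothelial surface protein, among them (-2.60 ± 0.202, adjusted p = 1.17e-07), and 9 of 10 proliferation genes were lower as well, with sums of 3238 to 3745 at day 18 and 6016 to 6542 at day 7. At day 28 against day 18, when 8 of 9 members rose, 9 immediate early, 7 mesothelial and 10 proliferation genes were lower and 0 of any of the 3 lists were higher by limma. At an unadjusted p under 0.05, 1 immediate early gene was higher and 0 of the other lists were, and 1 immediate early gene was called higher in 8 of 23 alternative settings. Their part in the members' differences was not tested.

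**Figure D3:**
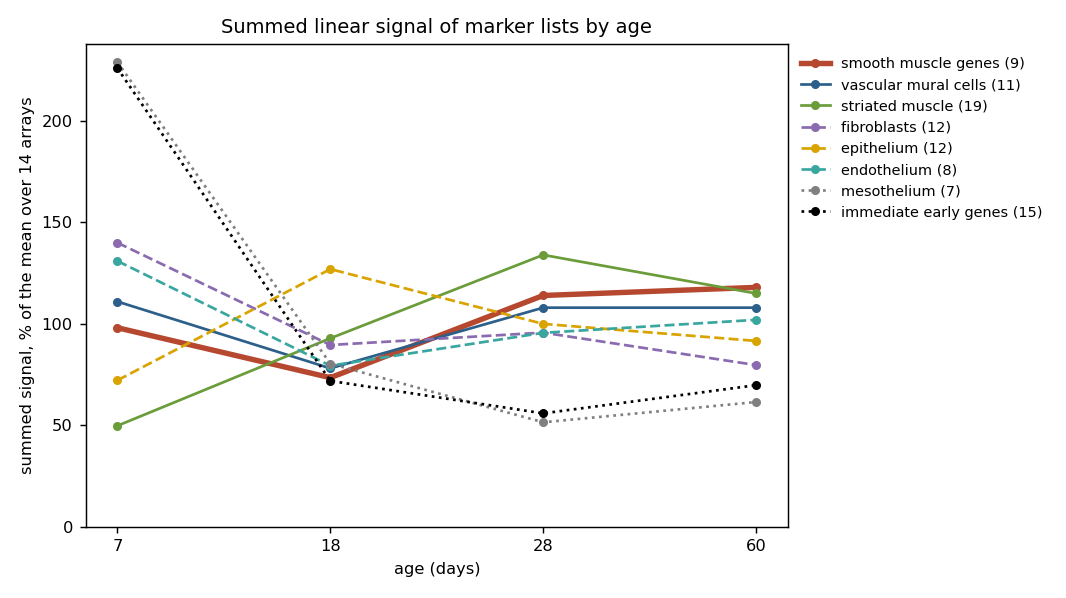
Summed linear signal of each marker list (vertical axis, percent of its own mean over the 14 arrays) at the 4 ages in days (horizontal axis, not to scale in time), with the number of genes measured in brackets. Lines join the means of 3 or 4 pools. The smooth muscle genes dip to 73.5% at day 18, with 98.1% before it (day 7) and 114% and 118% after it (days 28 and 60), and the epithelial markers are highest at day 18 (127%).

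In several pools most members lay on the same side of the mean of their age. In replicate 2 of day 7 all 9 members lay above the mean of their age, by 0.21 on average, and in replicate 3 of day 7 all 9 lay below it (-0.17). At day 18 all 9 lay above in replicate 2 (0.13) and 8 in replicate 3 (0.14), against 2 in replicate 1 (-0.13) and 1 in replicate 4 (-0.14). At day 28, 8 lay above in replicate 1 (0.14), 0 in replicate 2 (-0.10), 6 in replicate 3 (0.03) and 1 in replicate 4 (-0.07). At day 60 the counts were 5, 3 and 5 of 9, with mean deviations of -0.03 to 0.02. Epithelial markers deviated by 0.08, -0.16 and 0.09 in replicates 1, 2 and 3 of day 7. In replicates 1 to 4 of day 18 they deviated by 0.06, -0.06, -0.02 and 0.02. They ran against the members in every pool of days 7 and 18. In replicates 1 to 4 of day 28 they deviated by 0.00, -0.03, -0.01 and 0.04, and in replicate 2 they lay below 0 like the members. At day 60 they deviated by 0.04, -0.04 and 0.00. Fibroblast and mural markers lay on the members' side in every pool of days 7 and 18. Immediate early genes deviated by -0.18, -0.11 and 0.28 in replicates 1, 2 and 3 of day 7.

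**Figure D4:**
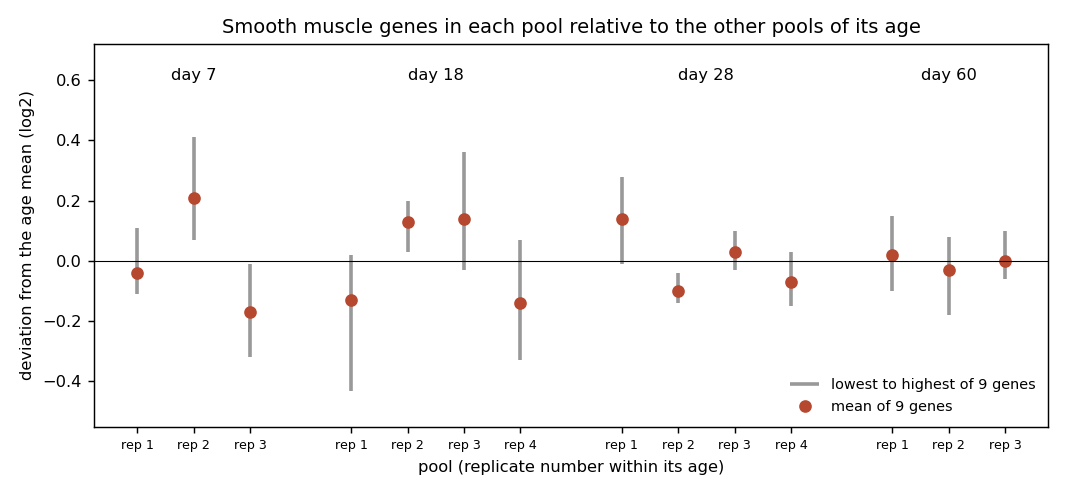
Deviation of each pool from the mean of its age on the log2 scale (vertical axis) for the 14 pools (horizontal axis). Points are the mean over the 9 smooth muscle genes and grey bars run from the lowest to the highest gene. Replicate 2 of day 7 lies wholly above 0 and replicate 3 of day 7 wholly below it, and the day 60 means lie between -0.03 and 0.02.

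Among genes outside the set, those most like its mean standardised profile over the 14 arrays were Pygm (Pearson 0.964), Rgs5 (0.963), Vldlr (0.963), Adgrd1 (0.946), Kcnd3 (0.94), Tpm2 (0.937), Mical1 (0.937), Dmpk (0.935), Copg1 (0.93) and Sfrp2 (0.93). Pygm, muscle glycogen phosphorylase, averaged 7.87, 7.23, 8.05 and 8.0 at days 7, 18, 28 and 60, and Tpm2, beta-tropomyosin, 9.19, 8.93, 9.62 and 9.55. Rgs5, a mural cell marker, averaged 8.26, 7.75, 8.43 and 8.56. Sfrp2, a secreted Wnt-binding protein, had the widest swing of the 10, with differences of -0.91 at day 18 and 1.17 at day 28. The arrays fall into ages, so these correlations describe the shared course of age means and were not tested.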

How the data were processed

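RNA from 14 pools of whole epididymides was hybridized to 1 array each. The deposited values are log2 signals, which the authors made with RMA in the Transcriptome Analysis Console, per the submitters' processing notes; versions and settings are not given in the sources used here. The table holds 36685 transcript clusters, 18511 of them with 1 symbol in the platform annotation, 575 with several and 17599 unnamed here. For 291 genes with several clusters the one with the highest mean was used, which gave 18166 genes, none removed for low signal. Limma 3.58.1 (R 4.3.3; lmFit and eBayes) fitted 1 mean for each age over all 14 arrays, with two-sided moderated tests of 6 pairs of ages, a joint F test over the 4 ages and Benjamini-Hochberg adjustment over all genes. The fit was tested on simulated data. The number of arrays limits the precision. Sums of lists are of linear signals. The members and lists were chosen with earlier results of these data known. Beside the members, lists are given by counts and by largest called rises and falls at steps of neighbouring ages. For the cell type, immediate early and proliferation lists, not every step and not every such gene is printed. The 10 genes with the highest correlation to the members' mean standardised profile are also named. Other genes named were chosen after their values were seen. Alternatives were quantile normalization, median centring, a filter on dim genes, an intensity trend with robust fitting, only the ages compared, array weights, a block for the replicate numbers, averaged clusters, every cluster, and each pool left out. List genes without a cluster of their own, such as Acta2, were not analysed here.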

Additional observations from a re-analysis of the deposited data

Results flagged for a closer look

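In 108 groups of 4 pools, 8 values stood far from the other 3 by Dixon's criterion, which chance alone gives in about 1 of 20 groups. Of the members, Myocd stood at 8.04 in replicate 1 of day 28, against 7.82 to 7.85 in the other pools of that age. The same pool was the highest for Pdlim7 (9.30, others 9.01 to 9.03), Klf4 (7.79, others 7.45 to 7.50) and Tbxa2r (6.21, others 6.13 to 6.15). Foxo4 was lowest in replicate 3 of day 18 (6.98, others 7.19 to 7.23), and Lrrn4 in replicate 4 of day 28 (4.90, others 5.53 to 5.64). Krt19 was highest in replicate 1 of day 18 (10.63, others 10.38 to 10.41) and Erg in replicate 2 of day 18 (6.49, others 6.31 to 6.33).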

How the results depend on the processing

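Of 1242 differences of members recomputed under 23 alternatives, 1188 kept their direction and side of the threshold, 26 lost a call, 13 gained one and 15 turned sign. The turned signs all belonged to differences without a call. They were those of Myh11 at day 18 against day 7 (0.03 with quantile normalization, 0.01 with median centring, 0.03 with the replicate block, -0.16 to 0.16 with a pool left out), Synpo2 at that step (-0.16 to 0.06 with a pool left out), Tagln (-0.07) and Mylk (-0.08) at day 60 against day 28 with quantile normalization, Mylk there with the replicate block (-0.02), array weights (-0.01) or a pool left out (-0.01 to 0.06), and Des at day 60 against day 7 with quantile normalization (-0.03). With a pool left out, 0 to 1 members were higher at day 18 against day 7, 0 to 1 higher and 0 to 1 lower at day 60 against day 28, and 1 to 2 lower at day 28 and at day 60 against day 7. At day 60 against day 28, 1 member was lower with quantile normalization and with the filter on dim genes. At day 60 against day 7, 1 was lower with median centring, only the ages compared, the replicate block and every cluster. The count of all genes higher at day 28 against day 7 was 2436 with the filter on dim genes, which tests fewer genes, and 3728 without it. Replicate numbers did not pair the pools: same-numbered pools of different ages correlated at -0.143 to 0.046 in their deviations (19 pairs, 0 over 0.1), and 3 of 14 pools correlated best with their own number. With the replicate block, 2969 genes were higher and 3523 lower at day 18 against day 7, against 3167 and 3762 without it. The causes of these changes were not tested.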

Other observations

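Over the whole span, day 60 against day 7, 21.7% of all genes were higher and 27.6% lower. The 27 receptors, channels and relaxation genes had no common direction, with 9 higher, 8 lower and 10 not called by limma (median 0.00). The 9 higher were P2rx1 (2.29 ± 0.169 on the log2 scale, SE), Oxtr (2.20 ± 0.147), Pln, phospholamban, which restrains the calcium pump of the store (2.09 ± 0.139), Adra1a, Atp2a2, Chrm3, Itpr1, Ano1 and Kcnma1 (0.40 to 0.99). The 8 lower held both receptors that drive contraction and genes of the nitric oxide and cyclic GMP route of relaxation. Of the receptors, Agtr1a differed by -1.26 ± 0.0802, Tbxa2r by -1.20 ± 0.113, Ptgfr by -1.09 ± 0.158 and Chrm2 by -0.54 ± 0.171. Of the relaxation route, Gucy1a1 differed by -1.37 ± 0.0852, Gucy1b1 by -1.02 ± 0.123 and Prkg1 by -0.62 ± 0.134. Pde5a, whose enzyme breaks cyclic GMP down and so limits that route, differed by -0.98 ± 0.0801. Irag1, a target of the kinase of the route, was not called (0.00 ± 0.133). With the filter on dim genes, which leaves fewer genes, 4 were higher and 5 lower. Which cells carry these differences was not tested.

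Where 21.7% of all genes were higher and 27.6% lower, at day 60 against day 7, the 27 other contractile and anchoring genes were divided. Of these 27, 10 were higher and 10 lower (median -0.16). The higher count was 6 without replicate 1 of day 7, 5 without replicate 3 of day 60, and 6 with the filter on dim genes or with every cluster tested. Among the higher were Synm (1.40 ± 0.126), Sgca (0.90 ± 0.136), Itga7 (0.81 ± 0.121) and Dmd (0.63 ± 0.105). Among the lower were Sorbs2 (-1.34 ± 0.0758), Pdlim7 (-1.26 ± 0.119), Fhl1 (-1.13 ± 0.0869), Actn1 (-0.74 ± 0.116), Smtn (-0.63 ± 0.114) and Vcl (-0.39 ± 0.0964).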
